A study of Homo sapiens with 4 samples.

Results

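The genes described here are the enzymes that oxidise, hydrolyse and conjugate foreign chemicals: cytochromes P450 of families CYP1 to CYP4, flavin monooxygenases (FMO), alcohol dehydrogenases (ADH), UDP-glucuronosyltransferases (UGT1 and UGT2) and cytosolic sulfotransferases (SULT1 and SULT2), with the epoxide hydrolase EPHX1, the P450 electron donor POR and the receptor AHR. They were picked by gene symbol and by a minimum of 40 counts summed over all 4 libraries, which 39 of 81 matching symbols met, in a table of 28278 genes. The sum does not look at the groups. EPHX1, POR and AHR were added by name.

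The libraries came from A549, a human lung adenocarcinoma line. Stable derivatives were made by lentivirus, and 2 libraries come from cells with a CBX7 expression construct (genotype labelled CBX7 overexpression) and 2 from cells with a control construct (genotype labelled WT), so that both groups went through infection. CBX7 is a chromobox subunit of Polycomb repressive complex 1, which silences genes through histone marks. No untransduced cells are among the samples, and nothing in the labels says whether a line is 1 clone or a pool, or that libraries of a line came from separate cultures. The p-values therefore measure only the spread between these libraries, which may be technical.

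CBX7 itself had 1783 and 1550 counts in the CBX7 libraries, against 689 and 596 in the control libraries (log2 fold change 1.11, SE 0.156, edgeR adjusted p = 0.000141). SOCS3, named in the series title, had 1040 and 742 counts in the CBX7 libraries and 3771 and 2783 in the controls. Library totals were 90765502 and 88861255 counts with CBX7 and 88091494 and 69877585 in the controls. The keratins KRT8 and KRT18 were abundant in all libraries, while the surfactant genes of alveolar type II cells, SFTPA1, SFTPB and SFTPC, had 0 to 24 counts in any library. Levels below are in CPM, counts scaled to library size with TMM factors, with mean ± SD over n = 2 libraries a group, and fold changes are CBX7 over control.

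In phase I of xenobiotic metabolism, P450 enzymes take electrons from POR and insert oxygen into a lipophilic substrate, and epoxide hydrolase opens the reactive epoxides that can form. In phase II, UGT enzymes attach glucuronic acid and SULT enzymes attach sulfate, which makes the product soluble enough to leave the cell. The liver and gut carry most of this capacity, and in airway cells CYP1A1 and CYP1B1 are known for activating the polycyclic hydrocarbons of smoke after the ligand-bound receptor AHR switches them on.

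Members moved both ways. The AHR-inducible pair CYP1A1 and CYP1B1, the epoxygenase CYP2J2 and the fatty acid hydroxylase CYP4V2 fell, while EPHX1, 3 CYP4F genes, CYP2S1, FMO5, ADH6, SULT1A1, SULT2B1, UGT1A9 and UGT2B15 rose. Of 39 members, 37 passed the low-count filter and were tested, and 15 of them (40.5%) were called at an adjusted p under 0.05, where 24.4% of all 17271 tested genes were called. Higher calls numbered 11 (29.7% of tested members, against 10.5% of all tested genes) and lower calls 4 (10.8%, against 13.9%). Both CBX7 libraries lay above both controls in 19 of the 37 (30.8% of all tested genes) and below them in 5 (31.9%). The median log2 fold change was 0.38 over tested members and 0.0 over all tested genes.

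The minimum was met with 20 or more counts in each group by 32 members. The other 7 (UGT2B15, UGT2A3, CYP2A6, CYP2B6, CYP2C19, CYP2E1 and CYP3A4) passed it mainly through 1 group. UGT2B15, which is called, passed through the CBX7 group, where it is high, so it had to differ and its place among the 11 higher calls supports nothing. UGT2A3 and CYP2A6 also passed through the CBX7 group. Like UGT2B15, they are among the 19 members above both controls, where their places support nothing either. The median log2 fold change of 0.38 includes these genes. Just inside the minimum lay CYP2B6 with 40 and CYP2C19 with 41 counts, both untested (22 and 8 counts with CBX7 and 7 and 3 in the controls for CYP2B6, and 8 and 3 with CBX7 and 30 and 0 in the controls for CYP2C19), and just outside it UGT2B10 with 39 and UGT1A5 with 37. Without CBX7 library 2 the higher calls among members came to 7, and those over all tested genes to 6.18%.

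**Figure D1:**
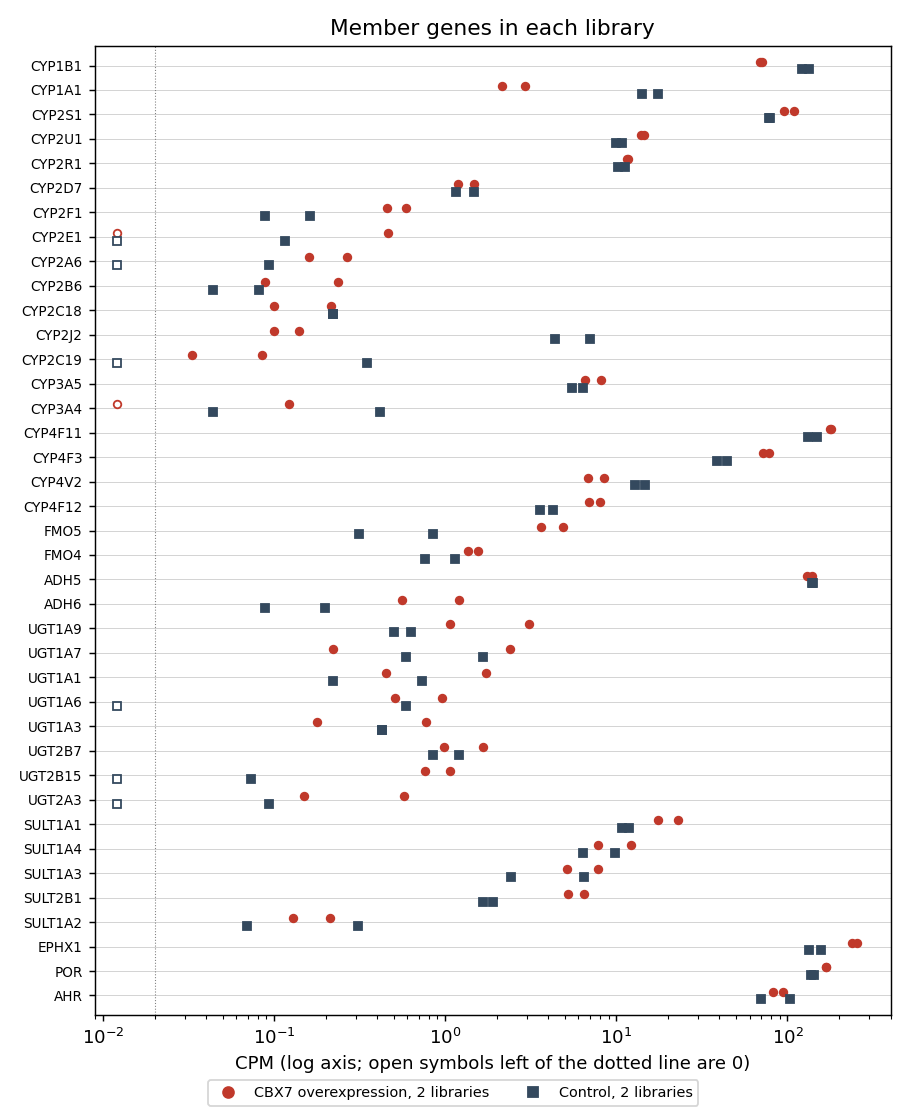
CPM of each of the 39 member genes (rows) in the 2 CBX7 libraries (circles) and the 2 control libraries (squares) on a log axis, with zeros as open symbols at the left. CYP2J2, CYP1A1 and CYP1B1 lie lower in both CBX7 libraries than in both controls, EPHX1, FMO5 and SULT2B1 higher, and the UGT1A rows overlap except for UGT1A9.

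The CYP1 enzymes, which oxidise polycyclic aromatic hydrocarbons and oestrogens, were both lower. CYP1A1 (chr15:74719542-74725610, GRCh38) had 2.94 and 2.14 CPM in the CBX7 libraries and 14.1 and 17.6 CPM in the controls. The lowest control library stood well above the highest CBX7 library, and the log2 fold change was -2.64 (SE 0.218, adjusted p = 8.04e-07, edgeR). CYP1B1 (chr2:38066973-38109902) had 71.0 and 69.4 CPM with CBX7 and 133 and 122 CPM in the controls, again without overlap (log2 fold change -0.86, SE 0.105, adjusted p = 4.29e-05, edgeR). Both calls held in all 11 alternative fits, with CYP1A1 between -2.89 and -2.42 when 1 library was left out. An antisense gene, CYP1B1-AS1, overlaps 11.3% of the exon bases of CYP1B1, and had 11 to 49 counts per library against 6257 or more for CYP1B1.

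AHR, the receptor that drives the CYP1 genes, did not separate the groups. It had 94.4 and 82.3 CPM with CBX7 and 103 and 70.0 CPM in the controls (log2 fold change 0.03, 95% interval -0.33 to 0.39, edgeR adjusted p = 0.929). The control libraries lay on either side of the CBX7 libraries, and 32.6% of the AHR transcript windows of 100 bases also occur in the overlapping gene AC019117.2. No gene of that name is among those counted. ARNT, the partner with which AHR binds DNA, was at 38.8 ± 0.79 CPM with CBX7 and 36.0 ± 0.44 CPM in the controls (n = 2 each, edgeR adjusted p = 0.561). TIPARP, an AHR target that feeds back on the receptor, fell to 49.7 and 49.9 CPM in the CBX7 libraries, against 224 and 198 CPM in the controls (log2 fold change -2.08, SE 0.107, edgeR adjusted p = 4.27e-09). AHRR, the AHR repressor and another of its targets, had 3.31 and 4.51 CPM with CBX7 and 5.81 and 6.04 CPM in the controls, with no overlap, but was not called (log2 fold change -0.60, edgeR adjusted p = 0.0925).

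The promoter windows of both strongly lower P450 genes in RefSeq (GRCh38.p14) are shown because each holds the core of a xenobiotic response element, the site that AHR and ARNT bind. They run 5′ to 3′ on the gene's strand over the 250 bases before the annotated start, at chr15:74725529-74725778 (minus strand) for CYP1A1 and chr1:59926774-59927023 (minus strand) for CYP2J2, with GCGTG in capitals.
CYP1A1: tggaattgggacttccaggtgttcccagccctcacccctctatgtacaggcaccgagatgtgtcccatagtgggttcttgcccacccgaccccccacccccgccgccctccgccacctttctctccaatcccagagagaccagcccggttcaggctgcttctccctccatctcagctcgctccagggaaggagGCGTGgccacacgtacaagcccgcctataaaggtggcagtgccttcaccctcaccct
CYP2J2: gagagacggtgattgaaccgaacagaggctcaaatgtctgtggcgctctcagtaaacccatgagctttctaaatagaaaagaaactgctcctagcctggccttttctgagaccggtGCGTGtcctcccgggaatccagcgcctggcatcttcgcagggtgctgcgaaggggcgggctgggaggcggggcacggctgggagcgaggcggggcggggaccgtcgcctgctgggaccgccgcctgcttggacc
The motif was searched as GCGTG on both strands, and 31.9% of all 27305 promoters hold it in a window of this length. Of the 31 members with a RefSeq promoter, 8 hold it: 2 of 3 lower, 2 of 9 higher and 4 of 17 not called. The lower gene CYP4V2 lacks it, and binding of AHR at these places was not tested. The other 8 members (CYP1B1, CYP2C18, CYP2D7, CYP2F1, CYP4F12, POR, SULT1A1 and SULT1A2) are named without a promoter. The higher gene SULT2B1 carries the motif at 2 places, as printed with its values further on.

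CYP2J2, an epoxygenase of arachidonic acid, fell the furthest of the 4 lower members. It was at 0.139 and 0.0998 CPM in the CBX7 libraries (13 and 9 counts), against 7.05 and 4.37 CPM in the controls (607 and 298 counts). The groups lay far apart, although the control libraries themselves differed 1.61-fold, and the log2 fold change was -5.56 (SE 0.414, 95% interval -6.45 to -4.67, adjusted p = 2.69e-07, edgeR). It was called in all 11 alternative fits.

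The other well-counted CYP2 genes moved little or upward. CYP2S1, an extrahepatic P450, had 109 and 94.8 CPM with CBX7 and 77.8 and 78.8 CPM in the controls (log2 fold change 0.38, SE 0.110, adjusted p = 0.0224, edgeR). The CBX7 libraries were both above the controls, but the adjusted p was 0.0531 when control library 2 was left out and 0.278 when CBX7 library 1 was. CYP2U1, a fatty acid hydroxylase, had 13.8 and 14.5 CPM with CBX7 and 10.8 and 10.0 CPM in the controls, and just missed the threshold (edgeR adjusted p = 0.0512). CYP2R1, the vitamin D 25-hydroxylase, was at 11.6 ± 0.017 CPM with CBX7 and 10.7 ± 0.77 CPM in the controls (n = 2 each, log2 95% interval -0.23 to 0.47, edgeR adjusted p = 0.667).

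Several CYP2 members were too thinly counted for a statement. CYP2F1, a lung P450 that activates naphthalene, had 55 and 41 counts with CBX7 and 14 and 6 in the controls, without overlap and not called (log2 95% interval -0.00 to 4.07, edgeR adjusted p = 0.141). CYP2A6, CYP2C18 and CYP2E1, enzymes of nicotine, drug and ethanol oxidation, had 0 to 42 counts in any library and were not called (edgeR adjusted p of 0.330, 0.808 and 0.498). CYP2D7, a pseudogene beside the drug-metabolising CYP2D6, had 111 and 133 counts with CBX7 and 100 and 101 in the controls, while CYP2D6 is listed at 0 in all 4 libraries. Of the 100-base windows in the CYP2D7 transcript 12.7% also occur in CYP2D6, so the assignment of reads between them is uncertain.

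CYP3A5 and CYP3A4, which oxidise a large share of clinical drugs, were not called. CYP3A5 was at 8.18 and 6.60 CPM with CBX7 and 5.47 and 6.41 CPM in the controls (log2 95% interval -0.14 to 0.77, edgeR adjusted p = 0.320). CYP3A4 had 0 and 11 counts with CBX7 and 36 and 3 in the controls. The sum of all CYP3A genes had a log2 fold change of 0.27 (SE 0.207, edgeR adjusted p = 0.397).

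All 4 CYP4 members were called, where 24.4% of all tested genes were, and the CYP4F genes went the opposite way from CYP4V2. CYP4F3, the omega-hydroxylase that inactivates leukotriene B4, had 78.0 and 72.3 CPM with CBX7 and 44.1 and 38.9 CPM in the controls (log2 fold change 0.86, SE 0.114, adjusted p = 8.85e-05, edgeR). CYP4F11, which hydroxylates vitamin K and fatty acids, had 178 and 179 CPM with CBX7 and 148 and 132 CPM in the controls (log2 fold change 0.35, SE 0.0999, adjusted p = 0.0202, edgeR). CYP4F12 had 6.90 and 7.98 CPM with CBX7 and 3.59 and 4.25 CPM in the controls (log2 fold change 0.93, SE 0.224, adjusted p = 0.00827, edgeR). In each of the 3 genes both CBX7 libraries lay above both controls, as in 30.8% of all tested genes. They sit near each other on chromosome 19, CYP4F3 at chr19:15640897-15662825, CYP4F12 at chr19:15672757-15697174 and CYP4F11 at chr19:15912367-15934867. At most 1.9% of their transcript windows occur in another gene, and the summed CYP4F counts also rose (log2 fold change 0.49, SE 0.0951, edgeR adjusted p = 0.00181). Leaving out control library 2, CBX7 library 1 or CBX7 library 2 ended the CYP4F11 call (adjusted p of 0.0723, 0.112 and 0.102), and leaving out CBX7 library 2 ended that of CYP4F12 (0.0784).

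CYP4V2 (chr4:186191520-186213456), a fatty acid hydroxylase whose loss causes a retinal dystrophy, fell. It had 8.46 and 6.79 CPM with CBX7 and 14.7 and 12.8 CPM in the controls, without overlap (log2 fold change -0.85, SE 0.180, adjusted p = 0.00365, edgeR). The neighbouring KLKB1, which shares 2.0% of its exon bases, had 0 and 0 counts with CBX7 and 38 and 13 in the controls.

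POR, which hands electrons to all microsomal P450 enzymes, was at 168 ± 0.024 CPM with CBX7 and 139 ± 4.1 CPM in the controls (n = 2 each). Both CBX7 libraries exceeded both controls, but POR just missed the threshold with a log2 fold change of 0.27 (SE 0.0959, edgeR adjusted p = 0.0575). It passed in 5 of 11 alternative fits, among them DESeq2 (adjusted p = 0.0176). EPHX1, the microsomal epoxide hydrolase, had 240 and 254 CPM with CBX7 and 133 and 157 CPM in the controls. The groups were apart and the rise was called in every alternative fit (chr1:225810092-225845563, log2 fold change 0.77, SE 0.104, adjusted p = 0.000105, edgeR).

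The members were also set in order per length, as CPM per kilobase of the longest GENCODE v29 coding transcript. In the CBX7 libraries EPHX1 led with 138 ± 5.8, followed by POR with 66.2 ± 0.0094, CYP4F11 with 56.4 ± 0.32, ADH5 with 51.7 ± 2.6 and CYP2S1 with 36.6 ± 3.6 CPM per kilobase (n = 2). In the controls EPHX1 led with 81.0 ± 9.4, then POR with 55.0 ± 1.6 and ADH5 with 53.5 ± 0.83, which did not differ beyond their spread, then CYP4F11 with 44.2 ± 3.6 and CYP2S1 with 28.2 ± 0.25 CPM per kilobase. CYP1B1 came next in the controls with 24.3 ± 1.5 CPM per kilobase. In the CBX7 libraries CYP4F3 came next with 14.9 ± 0.79. CYP1B1 followed there with 13.4 ± 0.22, within the spread of AHR with 12.7 ± 1.2 CPM per kilobase.

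**Figure D2:**
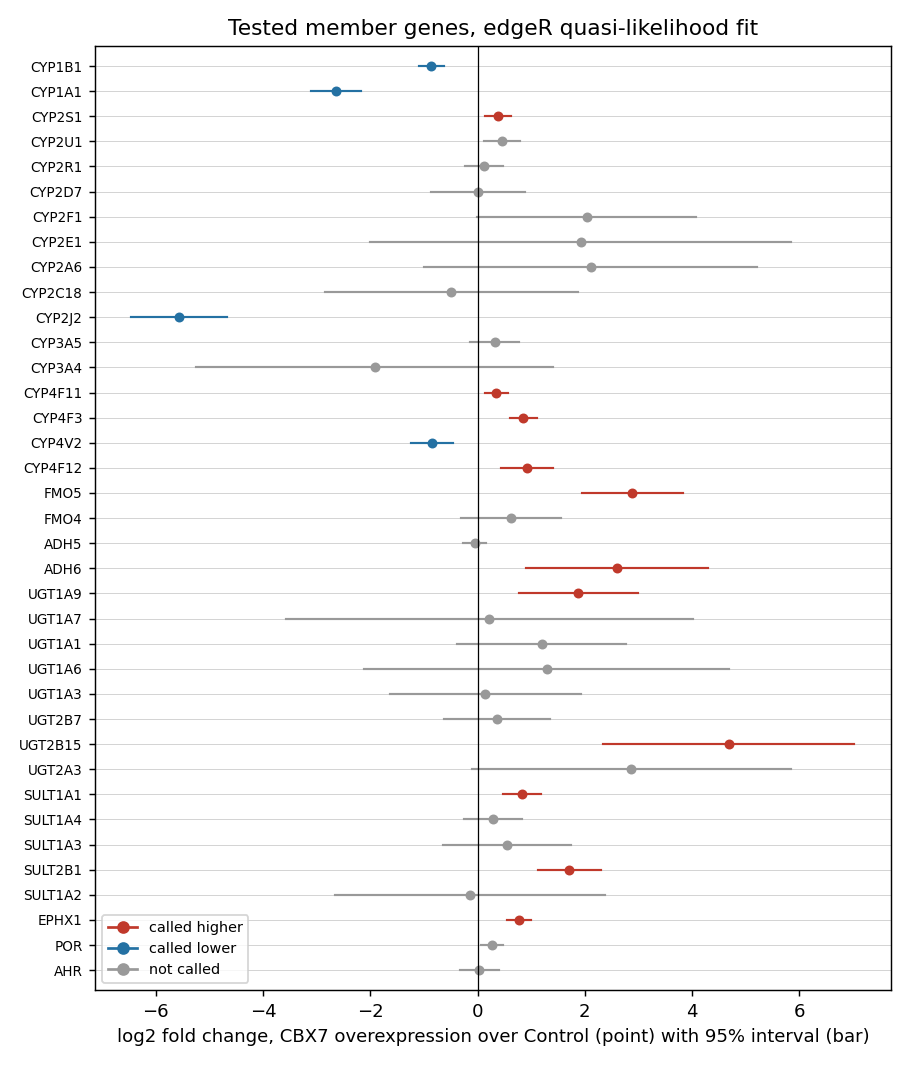
Log2 fold change of CBX7 over control for the 37 tested member genes (points) with 95% intervals from the edgeR quasi-likelihood fit (bars), coloured by call. CYP2J2 at -5.56 and UGT2B15 at 4.68 mark the extremes, and the intervals of UGT1A7, CYP2E1, UGT1A6 and CYP3A4 are wide and include 0.

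Of the flavin monooxygenases, which oxidise nitrogen and sulfur in drugs, FMO5 rose. This enzyme, unusual in its family for oxidising ketones to esters, had 459 and 326 counts with CBX7 (4.90 and 3.61 CPM) and 27 and 58 in the controls (0.313 and 0.850 CPM). The lower CBX7 library was still several times the higher control (log2 fold change 2.89, SE 0.439, 95% interval 1.94 to 3.83, adjusted p = 0.000301, edgeR). The size depended on the controls, with a log2 fold change of 3.77 without control library 2 and 2.33 without control library 1, both called. FMO4 had 128 and 140 counts with CBX7 and 98 and 52 in the controls and was not called (edgeR adjusted p = 0.344).

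Of the alcohol dehydrogenases, ADH5, the glutathione-dependent formaldehyde dehydrogenase present in nearly all cells, was level in both groups. It had 130 and 140 CPM with CBX7 and 141 and 138 CPM in the controls (log2 95% interval -0.26 to 0.16, edgeR adjusted p = 0.776). ADH6, a liver-type dehydrogenase of the same cluster on chromosome 4, had 52 and 109 counts with CBX7 and 17 and 6 in the controls, with no overlap. Its log2 fold change was 2.60 (SE 0.787, adjusted p = 0.0277, edgeR), a call that ended when control library 2 (adjusted p = 0.100) or CBX7 library 2 (0.342) was dropped and with the replicate number as a block (0.0551). The log2 fold change was 1.95 without CBX7 library 2 and 3.31 without control library 1. The ADH1 genes had 3 to 33 counts per library in sum and were not tested.

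The UGT1A genes call for care, because they are alternative first exons spliced to one set of 4 shared exons on chromosome 2. In GENCODE v29 the 1478 bases of exons 2 to 5 are identical in all 9 UGT1A genes, and 33.2% to 75.6% of the 100-base windows of the 5 members' transcripts occur in another gene. The junctions of the members are shown for this reason: 24 bases from the end of each first exon in lower case, then the first 24 bases of the shared second exon (chr2:233767034-233767057, plus strand, GRCh38) in capitals.
UGT1A9: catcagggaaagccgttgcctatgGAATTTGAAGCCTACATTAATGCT
UGT1A7: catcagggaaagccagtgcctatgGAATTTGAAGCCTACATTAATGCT
UGT1A6: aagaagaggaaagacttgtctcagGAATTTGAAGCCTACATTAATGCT
UGT1A3: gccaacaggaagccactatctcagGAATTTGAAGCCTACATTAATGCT
UGT1A1: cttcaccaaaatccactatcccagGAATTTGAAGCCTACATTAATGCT
A read from the capital part alone cannot be placed in any 1 of these genes, and how such reads were counted is not given in the sources used here.

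Single UGT1A genes varied widely between libraries of the same group. UGT1A7 had 225 and 20 counts in the CBX7 libraries, a 10.8-fold difference in CPM, and 143 and 40 in the controls. UGT1A9, which conjugates phenols, had 100 and 278 counts with CBX7 and 43 and 43 in the controls. UGT1A1, the enzyme that conjugates bilirubin, had 42 and 156 with CBX7 and 19 and 50 in the controls. In the CBX7 libraries, UGT1A7, UGT1A6 and UGT1A3 were higher in library 1, while UGT1A9 and UGT1A1 were higher in library 2. UGT1A6, another phenol conjugator, had 90 and 46 counts with CBX7 and 51 and 0 in the controls, and UGT1A3 had 72 and 16 with CBX7 and 37 and 29 in the controls. Only UGT1A9 was called among these 5 (log2 fold change 1.88, SE 0.516, adjusted p = 0.0169, edgeR), and it was not called with limma-voom (adjusted p = 0.0531). Dropping control library 1 left a log2 fold change of 1.72 (adjusted p = 0.103) and dropping control library 2 left 2.06 (0.0746). Dropping CBX7 library 2 brought it to 0.93 (0.459), and dropping CBX7 library 1 to 2.45 (0.000325). Calls of the others also hung on 1 library: UGT1A6 was higher without control library 1 (adjusted p = 0.00713) and UGT1A1 higher (0.0448) and UGT1A7 lower (0.0400) without CBX7 library 1.

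Summed over all 9 genes, which sidesteps the split between them, UGT1A had 565 and 530 counts in the CBX7 libraries and 328 and 191 in the controls. The CBX7 libraries differed only 1.03-fold in CPM and both lay above the controls, at 5.96 ± 0.11 CPM with CBX7 and 3.30 ± 0.71 CPM in the controls (n = 2 each). The sum rose 1.80-fold (log2 fold change 0.85, SE 0.250, adjusted p = 0.0239, edgeR). The call ended on leaving out control library 2, CBX7 library 1 or CBX7 library 2 (adjusted p of 0.105, 0.103 and 0.0757).

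**Figure D3:**
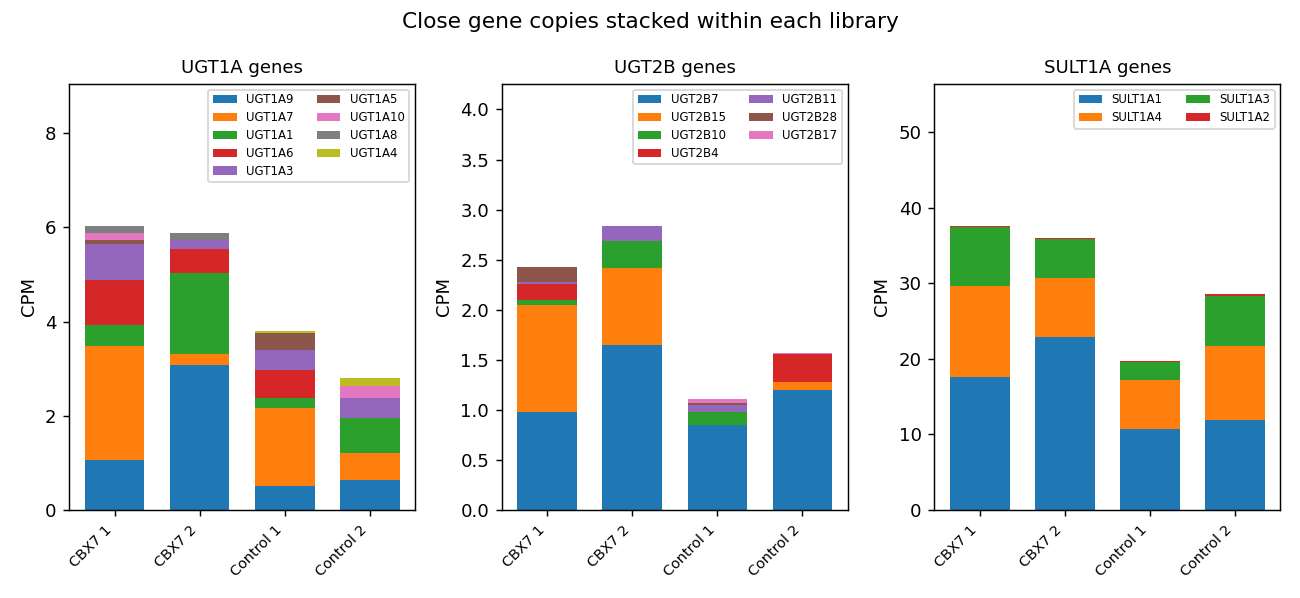
CPM of the UGT1A, UGT2B and SULT1A genes stacked within each of the 2 CBX7 and 2 control libraries, 1 colour a gene. The UGT1A stacks of the CBX7 libraries are nearly equal in height (565 and 530 counts) although UGT1A7 fills much of the first (225 counts) and little of the second (20 counts).

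The UGT2 genes lie on chromosome 4 and are separate genes of similar sequence. UGT2B15 (chr4:68646630-68670628), which conjugates androgens, had 100 and 69 counts with CBX7 and 0 and 5 in the controls. The groups were apart, and the log2 fold change was 4.68 with a wide error (SE 1.09, 95% interval 2.34 to 7.02, adjusted p = 0.0065, edgeR). A zero in estimated counts can be a failed estimate, and the log2 fold change was 3.62 without control library 1 and 9.37 without control library 2, which leaves the control at 0, so its size is uncertain. Of the UGT2B15 windows 12.7% occur in UGT2B17, which had 0 and 0 counts with CBX7 and 3 and 1 in the controls. UGT2B7, which conjugates opioids and steroids, had 92 and 149 counts with CBX7 and 73 and 82 in the controls, with overlapping CPM (edgeR adjusted p = 0.631). UGT2A3 had 14 and 52 counts with CBX7 and 8 and 0 in the controls (edgeR adjusted p = 0.155). The UGT2B sum had 227 and 256 counts with CBX7 and 95 and 107 in the controls, and missed the threshold (log2 fold change 0.98, SE 0.353, edgeR adjusted p = 0.0576).

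Among the sulfotransferases, SULT2B1, which sulfates cholesterol and hydroxysteroids, rose. It had 490 and 582 counts with CBX7 and 163 and 114 in the controls, a clear gap between groups (chr19:48552075-48599425, log2 fold change 1.71, SE 0.271, adjusted p = 0.000399, edgeR), and was called in all 11 alternative fits. Its RefSeq promoter window (chr19:48551922-48552171, plus strand), printed for comparison with the lower genes, holds GCGTG at 2 places, in capitals.
SULT2B1: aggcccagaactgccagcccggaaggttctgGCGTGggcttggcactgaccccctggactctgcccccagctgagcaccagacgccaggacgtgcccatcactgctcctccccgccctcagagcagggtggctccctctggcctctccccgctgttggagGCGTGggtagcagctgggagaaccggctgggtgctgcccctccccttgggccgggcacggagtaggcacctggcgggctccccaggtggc
The core of an antioxidant response element, searched as TGACNNNGC on both strands, was present in 3013 of the 27305 promoters and in 3 of the 31 members' windows, those of CYP4F11, CYP4V2 and CYP2B6.

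SULT1A1, the main phenol sulfotransferase, had 1645 and 2062 counts with CBX7 and 928 and 812 in the controls. Both CBX7 libraries were higher (log2 fold change 0.83, SE 0.163, adjusted p = 0.00208, edgeR), as in all 11 alternative fits, and 8.5% of its windows occur elsewhere. SULT1A3 and SULT1A4, duplicate genes for a dopamine sulfotransferase, share 98.5% and 99.0% of their windows with other genes. SULT1A3 had 733 and 466 counts with CBX7 and 210 and 444 in the controls, and SULT1A4 had 1133 and 706 with CBX7 and 552 and 673 in the controls. Neither was called (edgeR adjusted p of 0.498 and 0.445), though SULT1A3 was without control library 2 (0.0204). Their read-through genes had 800 and 1427 counts (SLX1A-SULT1A3) and 859 and 1675 counts (SLX1B-SULT1A4) with CBX7, so that library 2 was higher there and library 1 higher in SULT1A3 and SULT1A4. In the controls they had 1051 and 583 counts and 1082 and 575 counts, with the libraries again in opposite order to SULT1A3 and SULT1A4. Summed with the read-through genes, SULT1A3 and SULT1A4 were not called (log2 fold change 0.345, edgeR adjusted p = 0.0704). The SULT1A sum leaves the read-through genes out, so it does not remove this split. The SULT1A genes in sum rose 1.53-fold (log2 fold change 0.61, SE 0.157, edgeR adjusted p = 0.012), a call lost without control library 1 (0.0725). SULT1A2 had 12 and 19 counts with CBX7 and 6 and 21 in the controls (edgeR adjusted p = 0.953).

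Genes that feed these enzymes were listed from general knowledge and counted in the same fit. The lists here and below were drawn up with earlier results of these data known, so their shares of calls are descriptive only. Of 13 genes for electron donors and cosubstrates, all tested, 5 rose and 8 were not called, where 10.5% of all tested genes were higher. UGDH, which makes the UDP-glucuronic acid that UGT enzymes use, was at 990 ± 1.6 CPM with CBX7 and 683 ± 9.6 CPM in the controls (n = 2 each, log2 fold change 0.54, SE 0.0915, edgeR adjusted p = 0.000734). PAPSS2, which makes the sulfate donor PAPS, had 117 and 108 CPM with CBX7 and 70.1 and 61.6 CPM in the controls (log2 fold change 0.77, edgeR adjusted p = 0.000187), and its paralog PAPSS1 also rose, though not without CBX7 library 1 (adjusted p = 0.150) or CBX7 library 2 (0.0677). CYB5R3 and CYB5B, of the cytochrome b5 electron chain, rose by log2 fold changes of 0.47 and 0.38, calls lost without CBX7 library 2 (adjusted p of 0.0691 and 0.0616) and for CYB5B also without control library 1 (0.0743).

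Of 17 tested regulators, 6 rose and 2 fell, where 10.5% of all tested genes were higher and 13.9% lower. TIPARP, described above, and NFE2L2 were the 2 that fell. NFE2L2, which encodes the oxidative stress factor NRF2, was at 121 and 127 CPM with CBX7 and 232 and 194 CPM in the controls (log2 fold change -0.78, SE 0.108, edgeR adjusted p = 0.000131). HNF4A, a transcription factor of liver and gut, was at 33.6 and 32.6 CPM with CBX7 and 19.0 and 17.3 CPM in the controls (log2 fold change 0.87, edgeR adjusted p = 0.00019). FOXA1 was at 24.9 and 23.3 CPM with CBX7 and 9.23 and 11.7 CPM in the controls (log2 fold change 1.21, edgeR adjusted p = 6.81e-05). NR1I2, the drug-sensing receptor PXR, had 0 and 0 counts with CBX7 and 0 and 4 in the controls.

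**Figure D4:**
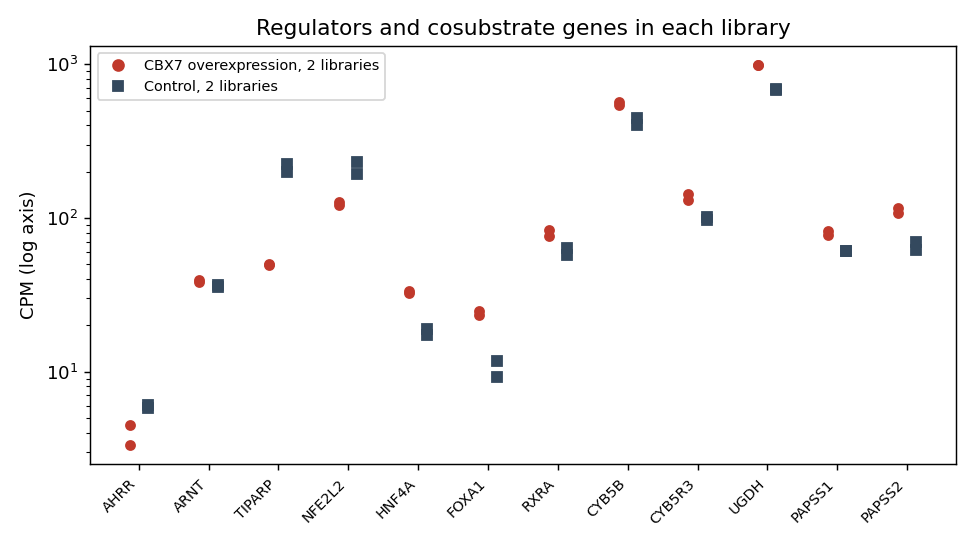
CPM on a log axis of 12 regulators and cosubstrate genes in the 2 CBX7 libraries (circles, left of each pair) and the 2 control libraries (squares, right). TIPARP and NFE2L2 lie lower in both CBX7 libraries, UGDH and PAPSS2 higher, and ARNT shows little difference.

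Of 27 tested genes for other conjugation and hydrolysis steps, 8 rose and 5 fell, against the same 10.5% higher and 13.9% lower over all tested genes. The glutathione transferases MGST2 and GSTM4 rose by log2 fold changes of 0.92 and 0.94 (edgeR adjusted p of 0.000182 and 0.0026). The carbonyl reductase CBR3 and the transferase GSTO1 fell, with log2 fold changes of -0.86 and -0.47 (edgeR adjusted p of 0.000918 and 0.00288), and GSTO1 was not called without CBX7 library 1 (0.0538). Among 9 tested P450 genes of higher-numbered families, which mostly act on vitamins and steroids, 2 rose. CYP24A1, the vitamin D 24-hydroxylase, was at 1404 ± 75 CPM with CBX7 and 971 ± 30 CPM in the controls, and CYP26B1, which breaks down retinoic acid, at 74.3 ± 1.4 CPM with CBX7 and 50.1 ± 0.54 CPM in the controls (n = 2 each, edgeR adjusted p of 0.000928 and 0.00145). Over these 4 lists together, higher calls numbered 21 of 66 (10.5% over all tested genes) and came to 11 without CBX7 library 2, where higher calls over all tested genes came to 6.18%. Lower calls numbered 7 (13.9% over all tested genes) and came to 4 without CBX7 library 1 (9.39%).

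Markers of other cell types also moved, among them FGB, APOH, CDH17, VIL1, CDH5 and CD14, which rose, and CD68 and ITGAM, which fell. The 12 markers of lung epithelium and A549 summed to 12300 to 13400 CPM with CBX7 and 13200 to 13500 CPM in the controls, mostly KRT8, KRT18 and KRT7. Within this list KRT7 was called lower (log2 fold change -0.288, edgeR adjusted p = 0.0342). NKX2-1 (1.615, adjusted p = 0.0489) and ABCA3 (0.378, 0.0445) were called higher, and the rest were not called or not tested. With 1 library left out, NKX2-1 ran from 1.33 to 1.968, ABCA3 from 0.202 to 0.59 and KRT7 from -0.329 to -0.235. NKX2-1 and KRT7 were not called in any of these fits, and ABCA3 only without control library 2. The NKX2-1 call was also lost with DESeq2, limma-voom and the replicate block, and that of KRT7 with library totals. The summed level of 11 hepatocyte markers was 32.5 to 35.6 CPM with CBX7 and 10.9 to 11.9 CPM in the controls, carried by FGB and APOH, with APOA1, APOA2 and TF at 6 counts or fewer in every library and ALB at 18 and 12 counts with CBX7 against 50 and 53 in the controls. The 10 enterocyte markers summed to 168 to 176 CPM with CBX7 and 87.6 to 89.0 CPM in the controls, mostly CDH17, with CDX1, FABP1 and FABP2 at 0. Of 7 leukocyte markers the summed level was 27.1 to 27.6 CPM with CBX7 and 166 to 171 CPM in the controls through CD68 and ITGAM, with CD3E at 0 and PTPRC at 9 counts or fewer. CD14, of the same list, went the other way, with 3.09 and 2.52 CPM with CBX7 and 1.25 and 1.36 CPM in the controls (log2 fold change 1.10, edgeR adjusted p = 0.0299), a call that ended when any 1 library was left out (adjusted p up to 0.213). Fibroblast markers (7) summed to 8.05 to 8.91 CPM with CBX7 and 5.71 to 8.28 CPM in the controls, and endothelial markers (6) to 3.54 to 3.88 CPM with CBX7 and 1.03 to 1.65 CPM in the controls, mostly CDH5 (log2 fold change 1.73, edgeR adjusted p = 0.00868), while VWF had 9 to 16 counts in every library. Their part in the enzyme results was not tested. In bulk libraries, fewer cells that express a gene and less RNA of it per cell cannot be told apart.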

How the data were processed

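RNA sequencing counts of 4 A549 libraries were analysed. The tools named, per the submitters' processing notes, are DESeq2, StringTie 2.2.1 and HISAT2 2.2.1, on hg38, without their roles. The values in the deposited table are treated as estimated counts per gene. All were whole numbers, so rounding changed nothing. For annotation, strandedness and shared reads, the handling is not given in the sources used here.

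Genes were filtered with filterByExpr, scaled by TMM and tested with the edgeR 4.0.16 quasi-likelihood model (robust, group only, R 4.3.3) over 17271 genes, with Benjamini-Hochberg adjustment. UGT1A, UGT2B, ADH1, CYP3A, CYP4F and SULT1A genes were also summed before the fit. Alternatives were DESeq2 1.42.0, limma-voom 3.58.1, other scalings and filters, a replicate block and leaving out each library. The method was tested on simulated data of 17271 genes, 200 of them changed. There the main fit made 195 calls, 22 of them false, and DESeq2 made 217, 38 of them false. The false share depends on how many genes change, and in the real data 24.4% of tested genes were called. It therefore cannot be carried over to these calls, and those near the threshold remain uncertain. Positions, transcript windows of 100 bases and junctions come from GENCODE 29, promoters from RefSeq. A count of 3 is 0.032 to 0.044 CPM, and counting error only is covered by such floors.

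The members and lists were chosen with earlier results of these data known. Named are all called members, all UGT members, AHR, POR and EPHX1, the 2 uncalled members with the highest CPM per family and up to 4 called genes per list with the smallest p. AHRR, ARNT, PAPSS1, NR1I2, RXRA, read-through, antisense and marker genes and thinly counted members were named after their values were seen.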

Additional observations from a re-analysis of the deposited data

How the results depend on the processing

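The 4 lower calls among members stood at 4 or 5 in the fits with each library left out and at 4 under the other scalings, filters and tests, and at 3 among members with at most 5% of windows shared, a limit chosen after seeing the data. Higher calls (11) stayed level or fell with 1 library left out and ran from 8 to 13 otherwise. Under the other scalings, filters and tests, 8.75% to 15.0% of all tested genes were called higher and 10.3% to 18.2% lower. Over all genes, higher calls ran from 1021 to 1790 with 1 library left out; library totals in place of TMM gave 2487 higher and 2033 lower calls (1809 and 2399 with TMM) and moved the median gene by 0.067 (log2). Over the 4 lists, higher calls ran from 11 to 23 and lower calls from 4 to 7 in the same fits, where the UGT1A sum (log2 fold change) ran from 0.65 to 1.09 and that of the SULT1A sum from 0.37 to 0.91. The UGT2B sum passed with library totals (1.05, adjusted p = 0.0416). The sum of SULT1A3, SULT1A4 and their read-through genes, chosen after seeing the data, was 0.34 (adjusted p = 0.0704) and passed with library totals (0.41), no low-count filter (0.36), a mean count of 50 or more (0.34) and the replicate block (0.33), and ran from 0.18 to 0.50 with 1 library left out. The ADH1 sum was not tested, and so gave no alternatives.

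Signs of uncalled genes turned in some fits, and the cause was not tested. ADH5 gave 0.016 with library totals; UGT1A7, UGT1A3 and SULT1A2 gave -0.47, -0.19 and 0.22 with limma-voom and -0.34, -0.17 and 0.12 with the replicate block. Leaving out single libraries gave log2 fold changes of -0.092 to 0.002 for ADH5, -0.21 to 0.34 for AHR, -0.053 to 0.65 for SULT1A4, -0.15 to 0.20 for CYP2D7, -2.33 to 1.17 for UGT1A7, -0.049 to 0.69 for UGT2B7, -0.072 to 2.30 for UGT1A1, -1.26 to 0.85 for UGT1A3 and -0.85 to 1.27 for SULT1A2. Over all tested genes, libraries with the same replicate number did not deviate together (correlation 0.028). This value cannot exclude a pairing that affects only part of the genes, and no label says whether the numbers pair samples. The replicate block gave 11 higher and 4 lower members, the same numbers as without it. ADH6 was lost (edgeR adjusted p = 0.0551) and POR gained (0.0429), with 2100 higher and 2503 lower calls over all genes. The 95% intervals of CYP2E1, CYP3A4, UGT1A6 and UGT1A7 include large changes in both directions; CYP2E1 and CYP3A4 had at most 42 counts in a library, while UGT1A7 had 428 counts in all and differed 10.8-fold between the CBX7 libraries.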
